A study of Mus musculus with 8 samples.

Results

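The genes described here are the D-, E- and A-type cyclins of the G1 and S phases with the kinases they activate and a phosphatase that acts on those kinases. The members are Ccnd1, Ccnd2, Ccnd3, Ccne1, Ccne2, Ccna2, Cdk2, Cdk4, Cdk6 and Cdc25a, chosen by their gene symbols. They were chosen with earlier results of these data known. All 10 were found, as 10 of the 49641 entries of the deposited expression table. Their levels were compared in RNA sequencing data of mouse embryonic stem cells, from 8 libraries in 4 groups of 2, all labelled as the line V6.5 on a 129/C57BL/6 background. The group called siMbnl1/2 was Dgcr8 knockout (KO) cells that received siRNAs against both Mbnl1 and Mbnl2, which encode muscleblind-like splicing regulators. The group called miR-294 was Dgcr8 KO cells transfected with a mimic of that microRNA. The group called Dgcr8 KO was knockout cells given a mock transfection, and the group called WT was wild-type cells given a mock transfection. No group is labelled as given a non-targeting mimic or siRNA. Each comparison of a treated group with a mock group may therefore also hold an effect of transfecting any small RNA, which was not tested. Mimics and siRNAs were used at 50 nM, 16 hours after plating, and all cultures had serum and LIF, and either gelatin or irradiated feeder fibroblasts beneath them, without a record of which surface each library had. The siMbnl1/2, miR-294 and Dgcr8 KO groups share the loss of Dgcr8. The mock column names differ between the genotypes (ES1 for Dgcr8 KO, V65 for WT), so whether both come from 1 parental line is not known, and each comparison with WT may also hold a difference between lines.

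Dgcr8 is the RNA-binding partner of the nuclease Drosha, and its loss stops the making of canonical microRNAs. The miR-290 family, to which miR-294 belongs, is abundant in mouse embryonic stem cells and is known there for promoting the passage from G1 to S phase. In the usual account of that passage, D-type cyclins bind Cdk4 or Cdk6 and begin the phosphorylation of the retinoblastoma family, which frees E2F factors, and cyclin E with Cdk2 completes it. Cdc25a removes inhibitory phosphates from Cdk2 and other cyclin-dependent kinases, and cyclin A2 carries Cdk2 activity through S phase. Mouse embryonic stem cells are known for a short G1 phase.

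A microRNA recognises messenger RNAs mainly through its seed, bases 2 to 8 from its 5′ end, so the seed and its matches in the 3′ untranslated regions (3′ UTRs) of these genes are shown first. The mature sequence of miR-294 is given with those of 2 relatives of the same cluster on chromosome 7 that carry the same seed. Sequences are from RefSeq on GRCm38.p6, 5′ to 3′, with the seed in capitals.
miR-294-3p, chr7:3220691-3220712, plus strand: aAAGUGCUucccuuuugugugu
miR-291a-3p, chr7:3218968-3218989, plus strand: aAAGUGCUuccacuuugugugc
miR-295-3p, chr7:3220815-3220837, plus strand: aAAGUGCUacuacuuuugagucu
The mimic therefore presents a seed that at least these cluster members share. The seed AAGUGCU also occurs in miR-302b-3p and miR-302d-3p of another cluster on chromosome 3.

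The longest annotated 3′ UTR of each gene (GENCODE M21 transcripts, mm10) was searched on its own strand for AGCACTTA (an 8mer), AGCACTT (7mer-m8), GCACTTA (7mer-A1) and GCACTT (6mer), each position being counted once under its longest form. Of the 10 members, 5 held at least 1 match of 7 or 8 bases, against 20.8% of 11503 tested genes with an annotated 3′ UTR. Those in members whose level fell after the mimic, and the matches of Cdk4, which had no call, are printed with their flanks and the match in capitals.
Ccnd1, 7mer-m8, chr7:144931677-144931683, minus strand: ttccatttcaaAGCACTTttggtcagcta
Ccnd2, 7mer-m8, chr6:127129341-127129347, minus strand: tccattagaaaAGCACTTtgaaaattttg
Cdk2, 7mer-A1, chr10:128698917-128698923, minus strand: tggcattagatGCACTTAacccggcttcc
Cdk6, 7mer-m8, chr5:3521852-3521858, plus strand: tctcaaccaccAGCACTTctaattcattt
Cdk6, 8mer, chr5:3525331-3525338, plus strand: cccgcacattcAGCACTTAtggactaggta
Cdk6, 8mer, chr5:3528433-3528440, plus strand: ataatagaaagAGCACTTAgcagatgggga
Cdk4, 7mer-m8, chr10:127067562-127067568, plus strand: aatgcttgccgAGCACTTgtgaggccctg
Cdk4, 7mer-m8, chr10:127067845-127067851, plus strand: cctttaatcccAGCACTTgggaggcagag
Cdk2 also held a 6mer, and Cdc25a held a 6mer and no longer match. No match of any of these forms was found in the searched 3′ UTRs of Ccnd3, Ccne1, Ccne2 or Ccna2. A match describes these letters and shows neither binding nor a cause of a change.

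The length of the searched region differed widely between members. Cdk6 had 10217 bases and Ccnd2 had 5173, against a median of 1136 over the genes searched. Ccnd1 had 2676 bases, Ccne2 1681, Cdc25a 1676, Ccna2 1369, Cdk2 1167, Ccnd3 915, Cdk4 899 and Ccne1 531. The 3 matches of Cdk6 place it among the 1.2% of genes with at least 3 matches of 7 or 8 bases, in the longest region of the set. The 2 matches of Cdk4 lie in one of the shortest.

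**Figure D1:**
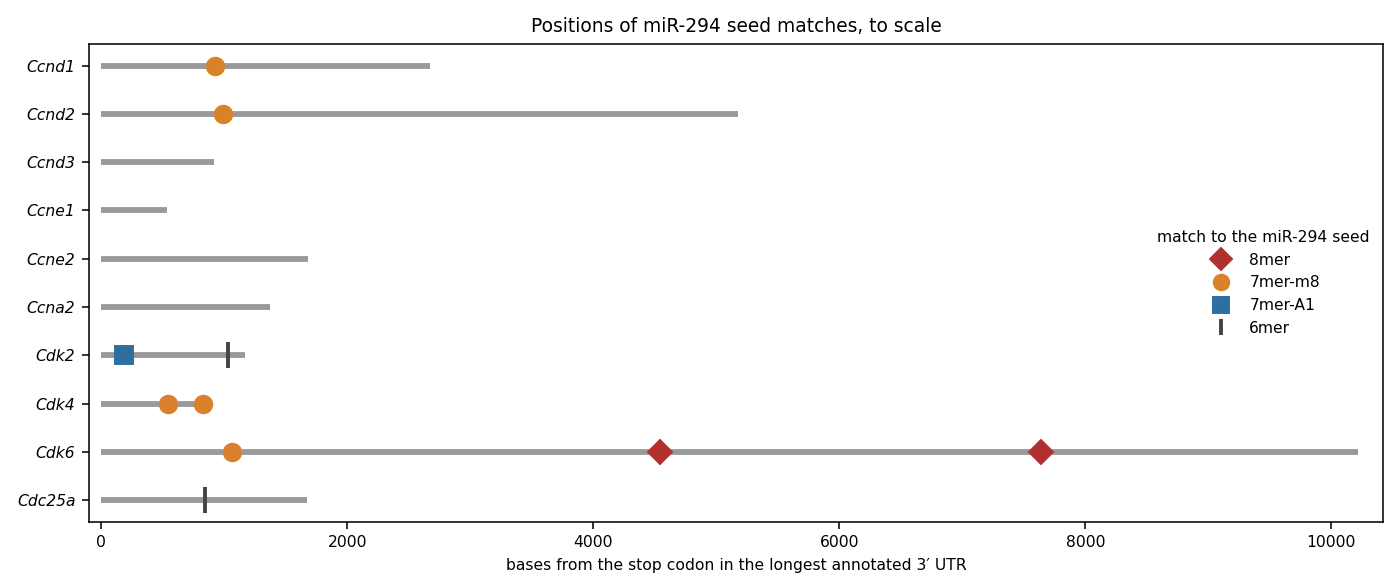
The longest annotated 3′ UTR of each member is drawn to scale as a grey line, in bases from the stop codon, and symbols mark matches to the miR-294 seed by type. The 3 matches of Cdk6 spread over 10217 bases, whereas Ccnd3, Ccne1, Ccne2 and Ccna2 carry none.

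Levels are given as FPKM, the fragments of a gene divided by its transcript length and by the library's mapped fragments, so they are relative to each library's total and can be compared between genes. All 10 members passed the filter for testing, a mean of at least 1 FPKM over the 8 libraries, as did 12786 entries. Differences are in mean log2(FPKM + 1), which understates the change of low genes, with a standard error (SE) from limma and a Benjamini-Hochberg adjusted p over all 12786 genes. A difference was called at an adjusted p under 0.05, two-sided. Nothing states that the libraries of a group came from separate cultures, so the p-values reflect no more than the variation among these libraries. Read depth is unknown, so no counting interval can be given. As these are bulk samples, fewer cells in a given phase and less RNA per cell cannot be told apart.

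The library labels were checked on the targeted genes. Dgcr8 was at 6.58 to 8.50 FPKM in the 6 libraries of the knockout background and at 21.9 and 22.9 FPKM in WT. Mbnl2 was at 11.2 and 14.3 FPKM after siMbnl1/2, against 24.7 and 28.6 FPKM in Dgcr8 KO, and Mbnl1 was at 6.84 and 6.76 FPKM, against 8.003 and 9.42 FPKM. Mbnl1 was below both siMbnl1/2 libraries in miR-294 and WT, at 5.17 and 4.92 FPKM in miR-294 and 4.80 and 5.12 FPKM in WT. In the miR-294 libraries Mbnl2 was also low, at 13.2 and 14.4 FPKM. The median gene varied between the 2 libraries of a group by 0.12 log2 units (SD) in siMbnl1/2, 0.05 in miR-294, 0.10 in Dgcr8 KO and 0.05 in WT. All groups shared 1 estimate of the spread.

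Ccnd2 was the member with the largest difference between Dgcr8 KO and WT. It encodes cyclin D2, a partner of Cdk4 and Cdk6. Its level was 22.2 and 19.8 FPKM in siMbnl1/2, 23.9 and 23.7 FPKM in miR-294, 30.02 and 31.9 FPKM in Dgcr8 KO, and 4.84 and 4.77 FPKM in WT. Every library of the knockout background lay above both WT libraries, and both Dgcr8 KO libraries lay above all others. Among tested genes its mean level stood at the 78.4th percentile in Dgcr8 KO and at the 32.4th percentile in WT. The Dgcr8 KO mean was 6.44-fold that of WT, a log2 difference of 2.46 ± 0.08 (SE, adjusted p = 1.87e-06). After the mimic Ccnd2 fell by 0.36 ± 0.08 relative to Dgcr8 KO (adjusted p = 0.00712), and it was at 4.96-fold of WT (log2 difference 2.10 ± 0.08, adjusted p = 1.95e-05). The fall after miR-294 lost its call without the second miR-294 library, at an adjusted p of 0.0503. After siMbnl1/2 Ccnd2 fell by 0.54 ± 0.08 relative to Dgcr8 KO (adjusted p = 0.0366). That call was lost under 9 of 16 alternative settings, at adjusted p up to 0.269. They include fitting the siMbnl1/2 and Dgcr8 KO libraries alone and leaving out either library of WT, miR-294 or Dgcr8 KO. The siMbnl1/2 and miR-294 groups had no called difference in Ccnd2 (-0.17 ± 0.08, adjusted p = 0.105).

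Ccnd1, which encodes cyclin D1, differed after the mimic and had no call between the genotypes. Its level was 41.0 and 33.3 FPKM in siMbnl1/2, 27.0 and 26.4 FPKM in miR-294, 45.2 and 46.2 FPKM in Dgcr8 KO, and 42.7 and 43.8 FPKM in WT. The 2 miR-294 libraries were the lowest of the 8. Relative to Dgcr8 KO, Ccnd1 fell by 0.75 ± 0.10 after miR-294 (0.584-fold, adjusted p = 6.13e-04), and this call held under all 16 alternative settings. Relative to WT it was lower after miR-294 by a log2 difference of -0.68 ± 0.10 (adjusted p = 0.00275). The difference between Dgcr8 KO and WT was 0.08 ± 0.10, with a 95% interval of -0.15 to 0.30 (adjusted p = 0.515). After siMbnl1/2 the difference from Dgcr8 KO was -0.30 ± 0.10 (adjusted p = 0.160), with the 2 siMbnl1/2 libraries further apart than those of any other group. Without siMbnl1/2 library 1 it was -0.45 and called (adjusted p = 0.0385), and without library 2 it was -0.155. Ccnd1 was higher in siMbnl1/2 than in miR-294 by 0.45 ± 0.10 (adjusted p = 0.00593).

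Ccnd3 was the most abundant D-type cyclin in every library. Its level was 106 and 148 FPKM in siMbnl1/2, 165 and 171 FPKM in miR-294, 155 and 129 FPKM in Dgcr8 KO, and 198 and 188 FPKM in WT. Both WT libraries were the highest, and the ranges of siMbnl1/2 and Dgcr8 KO overlapped. Ccnd3 was lower in Dgcr8 KO than in WT by a log2 difference of -0.44 ± 0.15 (adjusted p = 0.0358). This call was lost under 9 of 16 alternative settings, with a difference of -0.10 and an adjusted p of 0.570 after quantile normalization. Leaving out Dgcr8 KO library 2 or any 1 library of WT or miR-294 also ended it. The difference between miR-294 and Dgcr8 KO was 0.24 ± 0.15 (adjusted p = 0.206). Ccnd3 was lower in siMbnl1/2 than in miR-294 by a log2 difference of -0.42 ± 0.15 (adjusted p = 0.0466), a call lost under 10 of 16 alternatives, among them the omission of any 1 library of WT or miR-294 and of siMbnl1/2 library 1, without which the difference was -0.18 (adjusted p = 0.190).

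Read as shares, the D-type family was mostly Ccnd3 in all groups, with a larger part of Ccnd2 in the knockout background. Of the summed FPKM of the 3 genes, Ccnd2 held 11.5% ± 2.29 in siMbnl1/2, 10.9% ± 0.234 in miR-294, 14.2% ± 1.66 in Dgcr8 KO and 1.99% ± 0.0303 in WT (SD, n = 2 each). Ccnd1 held 20.4% ± 5.37 in siMbnl1/2, 12.2% ± 0.383 in miR-294, 20.9% ± 1.88 in Dgcr8 KO and 18.0% ± 0.782 in WT. Ccnd3 held the rest, 68.2% ± 7.66 in siMbnl1/2, 76.9% ± 0.617 in miR-294, 64.9% ± 3.54 in Dgcr8 KO and 80.0% ± 0.812 in WT. The Ccnd2 share was above 9% in each of the 6 libraries of the knockout background and about 2% in both WT libraries. The summed level of the 3 genes averaged 185 ± 22.2 FPKM in siMbnl1/2 and 219 ± 3.44 in miR-294. It averaged 219 ± 16.3 in Dgcr8 KO and 241 ± 6.06 in WT. Between Dgcr8 KO and WT the Ccnd2 share differed by a larger factor than this sum.

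**Figure D2:**
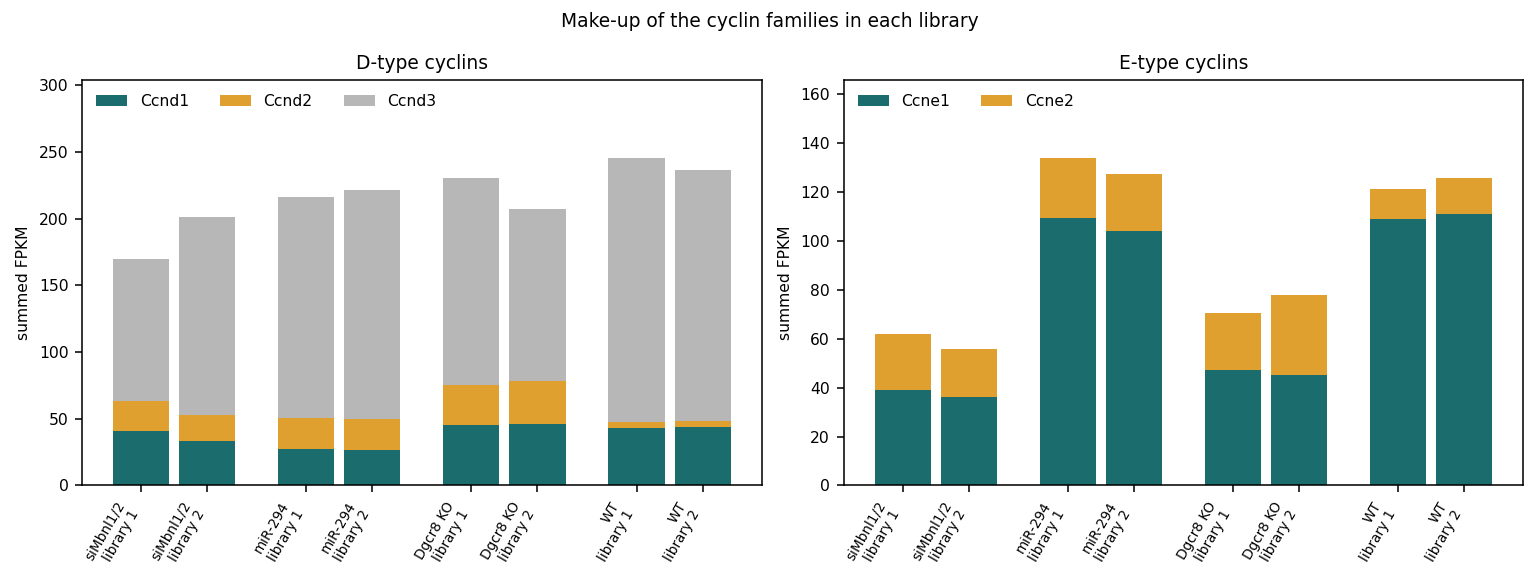
Stacked bars show the summed FPKM of the D-type cyclins (left) and of the E-type cyclins (right) in each of the 8 libraries, split by gene. Ccnd2 is a thin band in the 2 WT libraries and a wider one in the other 6, and the E-type bars of siMbnl1/2 (61.7 and 55.9) and Dgcr8 KO (70.4 and 77.7) are all lower than those of miR-294 and WT.

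The kinases that pair with D-type cyclins were Cdk4, the most abundant of the 10 members, and Cdk6, among the least abundant. Cdk4 was at 347 and 383 FPKM in siMbnl1/2, 435 and 448 FPKM in miR-294, 444 and 396 FPKM in Dgcr8 KO, and 569 and 548 FPKM in WT. Both WT libraries lay above the other 6, both siMbnl1/2 libraries lay below the other 6, and miR-294 and Dgcr8 KO overlapped. Cdk4 was lower in Dgcr8 KO than in WT by a log2 difference of -0.41 ± 0.08 (0.751-fold, adjusted p = 0.00248). After quantile normalization that difference was -0.15 (adjusted p = 0.0832). It was also lower than in WT after siMbnl1/2, by -0.61 ± 0.08 (adjusted p = 3.50e-04), and under all 16 alternatives. The difference between miR-294 and Dgcr8 KO was 0.08 ± 0.08, with a 95% interval of -0.10 to 0.25 (adjusted p = 0.439), and that between siMbnl1/2 and Dgcr8 KO was -0.20 ± 0.08 (adjusted p = 0.222). Relative to WT the miR-294 group was lower, at a difference of -0.34 ± 0.08 (adjusted p = 0.0169), a call lost without any 1 library of WT or miR-294 (adjusted p up to 0.124).

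Cdk6 was at 13.8 and 17.4 FPKM in siMbnl1/2, 13.4 and 12.5 FPKM in miR-294, 23.7 and 16.4 FPKM in Dgcr8 KO, and 14.0 and 13.3 FPKM in WT. Its first Dgcr8 KO library stood well above the second. Cdk6 was higher in Dgcr8 KO than in WT by 0.50 ± 0.17 (adjusted p = 0.0349) and lower after miR-294 than in Dgcr8 KO by a log2 difference of -0.57 ± 0.17 (adjusted p = 0.0246). Both calls rest on that first Dgcr8 KO library. Without it the differences were 0.25 (adjusted p = 0.184) and -0.32 (adjusted p = 0.116). Leaving out either miR-294 library ended both calls as well, and leaving out either WT library ended the first. Cdk6 made up 4.07% ± 0.368 of the summed FPKM of Cdk4 and Cdk6 in siMbnl1/2, 2.86% ± 0.203 in miR-294, 4.53% ± 0.770 in Dgcr8 KO and 2.38% ± 0.0318 in WT (SD, n = 2 each).

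Ccne1, which encodes cyclin E1, the activator of Cdk2 late in G1, split the 8 libraries into a low and a high set. Its level was 39.2 and 36.3 FPKM in siMbnl1/2, 109 and 104 FPKM in miR-294, 47.2 and 45.3 FPKM in Dgcr8 KO, and 109 and 111 FPKM in WT. The siMbnl1/2 and Dgcr8 KO libraries all lay below 50 FPKM, and the miR-294 and WT libraries all lay above 100 FPKM. Ccne1 was lower in Dgcr8 KO than in WT, at 0.421-fold (log2 difference -1.23 ± 0.07, adjusted p = 1.03e-05). It rose 2.31-fold after miR-294 relative to Dgcr8 KO (1.19 ± 0.07, adjusted p = 4.07e-05). The difference between miR-294 and WT was -0.04 ± 0.07 with a 95% interval of -0.20 to 0.11 (adjusted p = 0.667), and it was 0.01 and 0.06 under the 2 other scalings. The siMbnl1/2 group was at 0.354-fold of miR-294 (-1.47 ± 0.07, adjusted p = 1.80e-05) and at 0.344-fold of WT (-1.52 ± 0.07, adjusted p = 4.57e-06). Its difference from Dgcr8 KO was -0.29 ± 0.07 (adjusted p = 0.0834), with both siMbnl1/2 libraries below both Dgcr8 KO libraries. The 4 called differences held under all 16 alternative settings. The first 2 share the Dgcr8 KO libraries, so they are not independent of each other.

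Ccne2, which encodes cyclin E2, took the opposite direction to Ccne1 between the genotypes. Its level was 22.5 and 19.5 FPKM in siMbnl1/2, 24.2 and 23.3 FPKM in miR-294, 23.2 and 32.5 FPKM in Dgcr8 KO, and 12.5 and 14.5 FPKM in WT. Both WT libraries were the lowest, and the Dgcr8 KO libraries spanned both miR-294 libraries. Ccne2 was 2.06-fold higher in Dgcr8 KO than in WT (0.98 ± 0.15, adjusted p = 0.00111), and this held under all 16 alternatives. It was higher than in WT after miR-294 as well, by 0.77 ± 0.15 (adjusted p = 0.0101), a call lost without WT library 1 or without either miR-294 library (adjusted p up to 0.0787). After siMbnl1/2 it was higher than in WT by 0.60 ± 0.15 (adjusted p = 0.0110), lost without WT library 1 or siMbnl1/2 library 1. The differences from Dgcr8 KO were -0.20 ± 0.15 after miR-294 (adjusted p = 0.302) and -0.37 ± 0.15 after siMbnl1/2 (adjusted p = 0.252).

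Together the E-type cyclins summed to 58.8 ± 4.12 FPKM in siMbnl1/2, 130 ± 4.58 in miR-294, 74.1 ± 5.18 in Dgcr8 KO and 123 ± 3.06 in WT (SD, n = 2 each). Ccne1 held 64.3% ± 1.10 of that sum in siMbnl1/2, 81.8% ± 0.174 in miR-294, 62.6% ± 6.18 in Dgcr8 KO and 89.1% ± 0.845 in WT. The summed level after miR-294 was not below that of WT, while the Ccne1 share lay between those of Dgcr8 KO and WT.

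Cdc25a, the activating phosphatase, was, like Ccne1, lower in siMbnl1/2 and Dgcr8 KO than in miR-294 and WT, with smaller differences. Its level was 25.7 and 26.2 FPKM in siMbnl1/2, 36.8 and 37.4 FPKM in miR-294, 28.4 and 26.8 FPKM in Dgcr8 KO, and 33.7 and 34.4 FPKM in WT. No 2 groups overlapped. Cdc25a was lower in Dgcr8 KO than in WT by a log2 difference of -0.29 ± 0.06 (adjusted p = 0.00564), a call lost without WT library 2 (adjusted p = 0.0517). It rose by 0.41 ± 0.06 after miR-294 relative to Dgcr8 KO (1.34-fold, adjusted p = 0.00148). It was lower in siMbnl1/2 than in miR-294 by a log2 difference of -0.50 ± 0.06 (adjusted p = 5.84e-04). Both of these held under all 16 alternatives. The siMbnl1/2 group differed from Dgcr8 KO by -0.09 ± 0.06 (adjusted p = 0.538), and miR-294 from WT by 0.12 ± 0.06 (adjusted p = 0.207).

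Cdk2, the kinase partner of cyclins E and A, was at 32.5 and 34.0 FPKM in siMbnl1/2, 27.2 and 27.7 FPKM in miR-294, 36.1 and 32.0 FPKM in Dgcr8 KO, and 32.5 and 33.8 FPKM in WT. The 2 miR-294 libraries were the lowest, and the other 3 groups overlapped one another. Cdk2 fell by 0.30 ± 0.08 after miR-294 relative to Dgcr8 KO (0.807-fold, adjusted p = 0.0143), which was no longer called without Dgcr8 KO library 1 or either miR-294 library (adjusted p up to 0.0842). It was higher in siMbnl1/2 than in miR-294 by 0.27 ± 0.08 (adjusted p = 0.0213), lost under 4 of 16 alternatives, among them the omission of either miR-294 library or of siMbnl1/2 library 2. It was lower in miR-294 than in WT by a log2 difference of -0.26 ± 0.08 (adjusted p = 0.0415), lost under 9, among them the omission of any 1 library of WT or miR-294. The difference between Dgcr8 KO and WT was 0.03 ± 0.08, with a 95% interval of -0.15 to 0.21 (adjusted p = 0.734).

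Ccna2, which encodes cyclin A2, varied least between groups. Its level was 78.6 and 71.8 FPKM in siMbnl1/2, 83.2 and 84.955 FPKM in miR-294, 77.6 and 85.1 FPKM in Dgcr8 KO, and 90.8 and 90.4 FPKM in WT. WT was the highest, and the Dgcr8 KO libraries overlapped both other groups. Its differences were -0.15 ± 0.07 between Dgcr8 KO and WT (adjusted p = 0.102), 0.05 ± 0.07 between miR-294 and Dgcr8 KO (adjusted p = 0.605) and -0.11 ± 0.07 between siMbnl1/2 and Dgcr8 KO (adjusted p = 0.476). The only called difference was between siMbnl1/2 and WT, at -0.27 ± 0.07 (adjusted p = 0.0145). It was lost after quantile normalization (-0.04, adjusted p = 0.705) and without either WT library or siMbnl1/2 library 2.

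**Figure D3:**
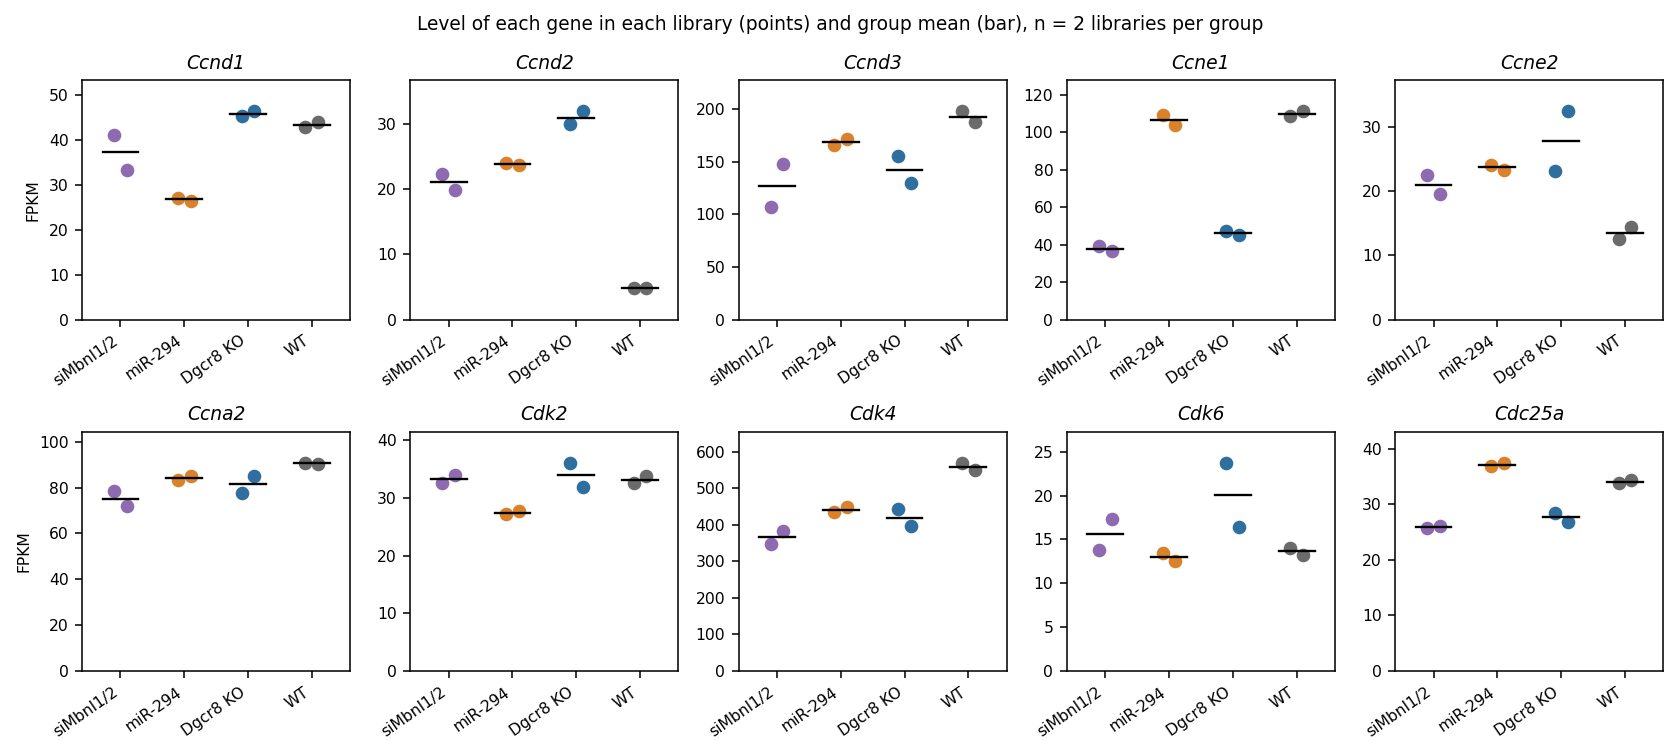
Points show the FPKM of each member in each library, by group, and bars show the group mean (n = 2 libraries per group; axes start at 0). Ccnd2 is near 5 FPKM in WT alone, Ccne1 is above 100 FPKM in miR-294 and WT, and Ccnd1 and Cdk2 are lowest in miR-294.

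Counted over the 10 members, 3 were called higher (Ccnd2, Ccne2, Cdk6) and 4 lower (Ccnd3, Ccne1, Cdk4, Cdc25a) in Dgcr8 KO than in WT. Of all genes tested, 29.6% were called higher and 30.1% lower in that comparison. After miR-294 relative to Dgcr8 KO, 2 members rose (Ccne1, Cdc25a) and 4 fell (Ccnd1, Ccnd2, Cdk2, Cdk6), against 22.9% higher and 29.2% lower of all genes. Members were thus called at about the rate of the table as a whole, or a little above it, and with 10 genes the difference is a few calls. The groups of a called member did not overlap in any comparison. Neither did those of some members without a call, such as Ccnd1 and Ccna2 between Dgcr8 KO and WT. With 2 libraries per group the lack of overlap largely follows from a call. The share over all genes was not computed, so it is not read as a result about the members. The median difference over the members was -0.06 between Dgcr8 KO and WT and -0.08 between miR-294 and Dgcr8 KO, against 0 and -0.06 over all genes tested.

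After siMbnl1/2 relative to Dgcr8 KO, no member rose and 1 fell (Ccnd2), against 0.868% higher and 0.242% lower of all genes. The other 9 members had differences between -0.37 and -0.03, all below 0, with a median over the 10 of -0.24, against 0.04 over all genes. None of these 9 was called, and Ccnd3 and Cdk2 changed sign when a single library was left out. Over all genes, 111 were called higher and 31 lower in this comparison. With median-of-ratios scaling the counts were 92 and 113, and with quantile normalization 117 and 88. Fitting the siMbnl1/2 and Dgcr8 KO libraries alone left 1 higher and 3 lower. Without siMbnl1/2 library 2 the counts were 464 and 190, without miR-294 library 1 they were 15 and 3, and without Dgcr8 KO library 2 they were 3 and 12.

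Between the 2 treatments of knockout cells, siMbnl1/2 minus miR-294, 2 members were higher (Ccnd1, Cdk2) and 4 lower (Ccnd3, Ccne1, Cdk4, Cdc25a), against 33% and 21% of all genes. The median over all genes was 0.10 there and -0.01 after median-of-ratios scaling. The genes called were 4217 higher and 2685 lower, against 3351 and 3546 with median-of-ratios scaling and 3131 and 3382 with quantile normalization. Cdk2 lost its call with median-of-ratios scaling and Cdk4 and Ccnd3 lost theirs with quantile normalization, while Ccnd1, Ccne1 and Cdc25a kept theirs under both.

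Set against WT, the miR-294 group had 2 members called higher (Ccnd2, Ccne2) and 3 lower (Ccnd1, Cdk2, Cdk4), against 11.8% and 14.7% of all genes. The siMbnl1/2 group had 2 higher (Ccnd2, Ccne2) and 5 lower (Ccnd3, Ccne1, Ccna2, Cdk4, Cdc25a), against 32.8% and 27.7%. Of the 7 members called between Dgcr8 KO and WT, Ccne1, Cdc25a, Ccnd3 and Cdk6 had no called difference between miR-294 and WT, and Ccnd2, Ccne2 and Cdk4 did. For the 4 without a call the differences were -0.04 for Ccne1, 0.12 for Cdc25a, -0.20 for Ccnd3 and -0.07 for Cdk6. Their 95% intervals were -0.20 to 0.11, -0.03 to 0.27, -0.55 to 0.15 and -0.47 to 0.33. With the miR-294 and WT libraries fitted alone, Ccnd3 was called at -0.20 (adjusted p = 0.00740) and Cdc25a at 0.12 (adjusted p = 0.0494), and 49.7% of all genes were called, against 26.5% with all libraries. These comparisons share WT or Dgcr8 KO libraries and so are not independent.

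**Figure D4:**
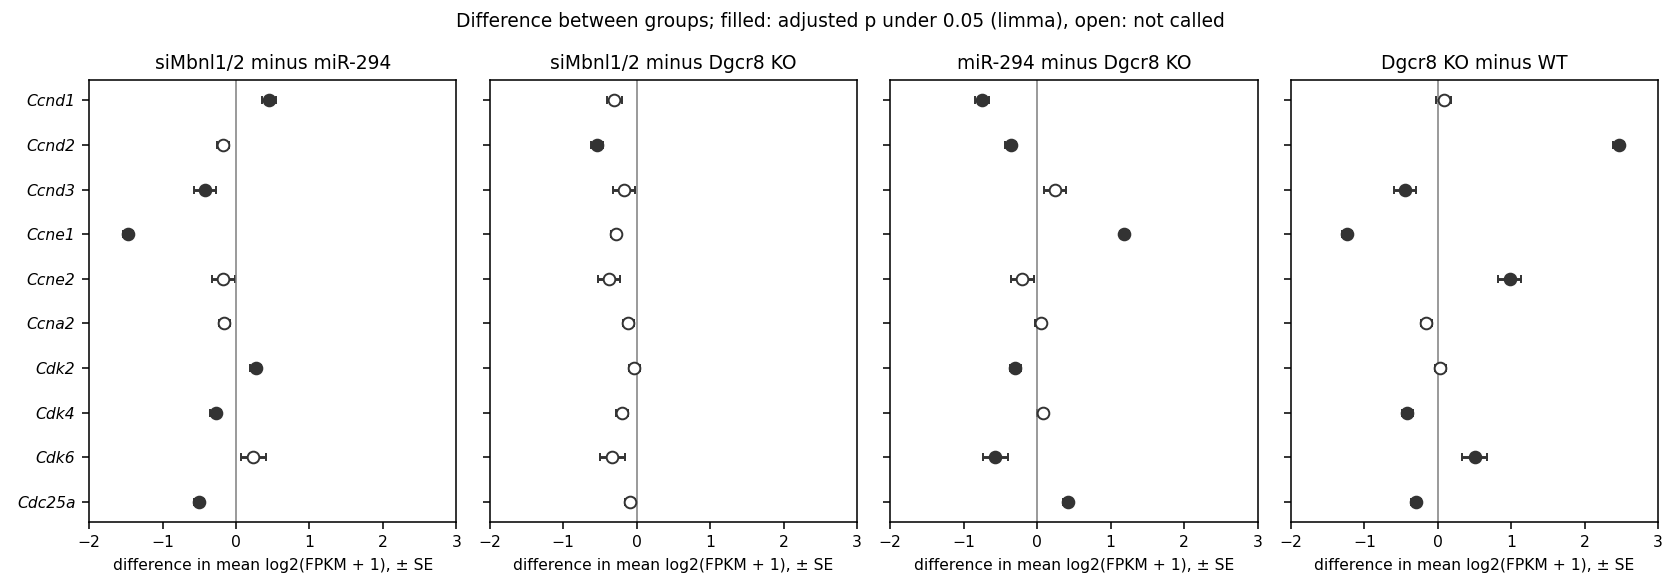
Differences in mean log2(FPKM + 1) are shown for each member with SE, filled where the adjusted p was under 0.05, in 4 comparisons with the first-named group on top of the difference. Ccne1 is at -1.47 in siMbnl1/2 minus miR-294, 1.19 in miR-294 minus Dgcr8 KO and -1.23 in Dgcr8 KO minus WT, and Ccnd2 is at 2.46 in Dgcr8 KO minus WT.

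The seed matches were set beside the difference after miR-294 relative to Dgcr8 KO. Of the 5 members with a match of 7 or 8 bases, Ccnd1, Ccnd2, Cdk2 and Cdk6 fell and Cdk4 was at 0.08. Of the 5 without one, Ccne1 and Cdc25a rose and Ccnd3, Ccne2 and Ccna2 had no call. No member without a match of 7 or 8 bases fell and none with such a match rose. That count depends on single libraries. Without Dgcr8 KO library 1, Ccne2, which has no match, was called lower (-0.435, adjusted p = 0.0311), and without miR-294 library 2, Ccnd1 was the only member called lower. Cdk6, with both 8mers of the set, was at -0.57, and Ccnd1, with a single 7mer-m8, was at -0.75. Over the table, the 2395 genes with at least 1 such match had a median difference of -0.23. Of them, 45.1% were called lower and 13.4% higher. The 415 genes with an 8mer had a median of -0.38. The 7709 genes with no match of 6 bases or more had a median of -0.01, with 25.5% called lower and 27.6% higher. Beside these shares, 5 members of each kind are too few to tell a sorting by match from the table as a whole. The first and the last of these sets also differed in 3′ UTR length, with medians of 2429 and 771 bases, whose part was not tested.

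The partners of these genes were described from lists of other cell cycle genes. The counts below are to be read beside the shares over all genes tested. These were 29.6% higher and 30.1% lower in Dgcr8 KO against WT, and 22.9% and 29.2% after miR-294 relative to Dgcr8 KO. A list called at about these shares does not differ in that from the table as a whole. The lists were chosen with earlier results of these data known, so a count above these shares is a description and no test. The Cdk inhibitors, which bind cyclin-kinase complexes or the kinases alone, were 6 higher and 1 lower of 7 in Dgcr8 KO against WT, with a median of 0.91. After miR-294 relative to Dgcr8 KO they were 1 higher and 6 lower, with a median of -0.99. With quantile normalization, the libraries of a comparison alone or the replicate block, 5 were higher in Dgcr8 KO and 5 lower after miR-294. Cdkn1a, the p21 inhibitor, had 112 and 106 FPKM in siMbnl1/2, 17.8 and 16.1 FPKM in miR-294, 64.4 and 57.1 FPKM in Dgcr8 KO, and 25.9 and 24.9 FPKM in WT. The 4 groups did not overlap. Cdkn1a fell by 1.78 after miR-294 and was the only inhibitor called after siMbnl1/2, with a rise of 0.84 ± 0.08 relative to Dgcr8 KO (adjusted p = 0.0124). No inhibitor was called there when those libraries were fitted alone or without Dgcr8 KO library 2. Cdkn2c, the p18 inhibitor of Cdk4 and Cdk6, was higher by 1.25 in Dgcr8 KO than in WT and fell by 1.11 after miR-294. Cdkn1c, the p57 inhibitor, was the exception, lower in Dgcr8 KO by a log2 difference of -2.30 relative to WT.

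The pocket proteins, the retinoblastoma family that cyclin-kinase complexes phosphorylate, were 3 higher of 3 in Dgcr8 KO against WT and 3 lower of 3 after miR-294. Rb1 was higher by 1.64 ± 0.10 in Dgcr8 KO than in WT (adjusted p = 1.83e-05) and fell by 1.022 after miR-294. Rbl2 was higher by 1.08 ± 0.13 and fell by 1.57. Both counts stayed at 3 under all 16 alternatives. Rb1 has 2 entries in the table, and the one with the higher mean was used.

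E2F factors and partners moved in both directions, 4 higher and 4 lower of 10 in Dgcr8 KO and 3 higher and 5 lower after miR-294. The counts after the mimic were 1 and 3 without either miR-294 library, 3 and 3 without Dgcr8 KO library 1, and 1 and 5 without Dgcr8 KO library 2. E2f4, a factor that acts mostly as a repressor with pocket proteins, was lower in Dgcr8 KO than in WT, at a difference of -1.23, and rose by 0.91 after miR-294. Tfdp1, a dimerisation partner of the E2F factors, was lower in Dgcr8 KO, at a difference of -1.03, and E2f7, an atypical repressor, fell by 0.77 after miR-294. Among the replication genes regulated by E2F, 3 were higher and 13 lower of 19 in Dgcr8 KO against WT, with a median of -0.33. After miR-294 relative to Dgcr8 KO, 10 were higher and 2 lower, with a median of 0.25. Mcm5, a subunit of the replicative helicase, was at -1.19 in Dgcr8 KO and at 0.68 after miR-294, and Orc1, of the origin recognition complex, at -0.78 and 0.82. With quantile normalization the replication genes regulated by E2F were 4 higher and 9 lower in Dgcr8 KO, with a median of -0.05, and 5 higher and 4 lower after miR-294, with a median of 0.08. Without miR-294 library 1, 8 were higher and 1 lower after the mimic.

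Other regulators of the kinases were mixed. Cdk phosphorylation and accessory proteins were 3 higher and 4 lower of 10 in Dgcr8 KO and 4 higher and 3 lower after miR-294. With quantile normalization none was higher and 3 were lower after miR-294, and without any 1 library of WT, miR-294 or Dgcr8 KO, 2 were higher there. Without either WT library, 2 were lower in Dgcr8 KO. Cdc25b, a phosphatase related to Cdc25a, went the other way from it, higher by 1.32 ± 0.15 in Dgcr8 KO than in WT (adjusted p = 1.91e-04) and lower after miR-294 by a log2 difference of -0.97. Wee1, an inhibitory kinase of Cdk1 and Cdk2, was higher by 0.88 in Dgcr8 KO, and Pkmyt1, a related inhibitory kinase, fell by 0.59 after miR-294. Genes of G1 cyclin and Cdc25a turnover were 5 higher and 3 lower of 14 in Dgcr8 KO and 3 higher and 4 lower after miR-294. Gsk3b, a kinase whose phosphorylation of cyclin D1 marks it for export and degradation, was higher by 1.24 in Dgcr8 KO and fell by 0.93 after miR-294. Cdc20, an activator of the anaphase-promoting complex, was lower in Dgcr8 KO, at a difference of -0.66, and rose by 0.79 after miR-294.

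Of 18 other cyclins listed, 16 were tested, and 4 were higher and 4 lower in Dgcr8 KO, with 5 higher and 4 lower after miR-294. Without either WT library, 2 were higher and 3 lower in Dgcr8 KO. Ccnb1, the mitotic cyclin B1, had 174 and 180 FPKM in miR-294, 91.2 and 93.1 FPKM in Dgcr8 KO, and 188 and 181 FPKM in WT. It was thus at -0.996 ± 0.06 in Dgcr8 KO relative to WT (adjusted p = 1.49e-05) and at 0.93 ± 0.06 after miR-294 relative to Dgcr8 KO (adjusted p = 5.13e-05). Ccnf was lower in Dgcr8 KO, at a difference of -0.68, and Ccno rose by 1.81 after miR-294. Of 15 other cyclin-dependent kinases, 14 were tested, with 2 higher and 7 lower in Dgcr8 KO and 4 higher and 3 lower after miR-294. Without miR-294 library 1 the counts after the mimic were 1 and 2. Cdk19, a Mediator kinase, was higher by 1.81 in Dgcr8 KO and fell by 1.30 after miR-294. Cdk20 was lower in Dgcr8 KO, at a difference of -0.55, and Cdk17 fell by 0.68 after miR-294. The mitotic genes were 2 higher and 3 lower of 14 in Dgcr8 KO and 3 higher and 4 lower after miR-294, with Plk1, a mitotic kinase, at -0.64 and 0.61. With quantile normalization they were 6 higher and 3 lower in Dgcr8 KO, with a median of 0.17, against -0.02 without it. Without either WT library or Dgcr8 KO library 1, 1 mitotic gene was higher in Dgcr8 KO, and without either miR-294 library 2 were lower after miR-294. Birc5, a subunit of the chromosomal passenger complex, was at -0.66 in Dgcr8 KO, and Aurka, a spindle kinase, was at 0.60 after miR-294. Beside Cdkn1a, no gene of these 9 lists was called between siMbnl1/2 and Dgcr8 KO with all libraries and no added scaling. With median-of-ratios scaling 2 of the replication genes and 1 turnover gene were called lower. Quantile normalization left 1 of the replication genes called lower. Without siMbnl1/2 library 2, 1 of the other cyclins and 1 turnover gene were called higher, and without either siMbnl1/2 library 1 of the replication genes was called lower.

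**Figure D5:**
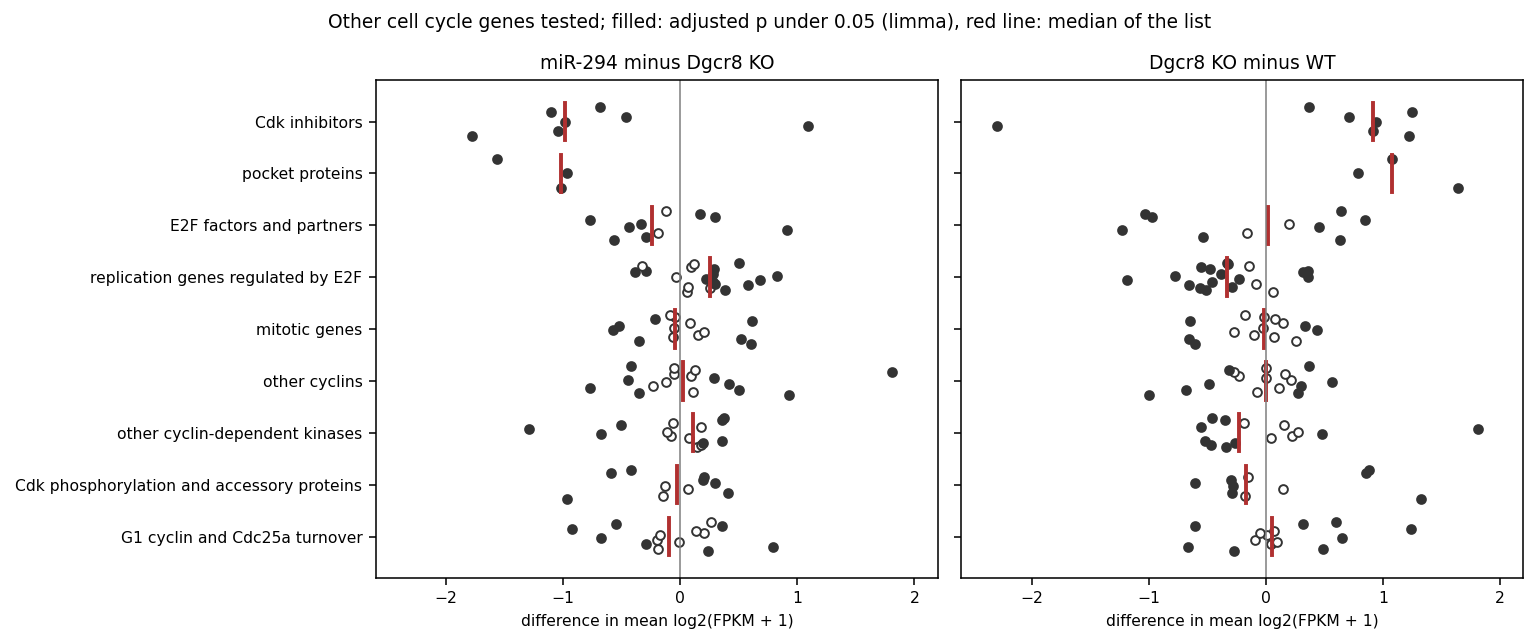
Each point is 1 tested gene of a list, at its difference in mean log2(FPKM + 1), filled where the adjusted p was under 0.05, and red lines are list medians. The pocket proteins and all Cdk inhibitors but Cdkn1c lie left of 0 in miR-294 minus Dgcr8 KO and right of 0 in Dgcr8 KO minus WT, and most other lists spread to both sides.

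The genes whose 8 values were most like each member's were found as those with the smallest root mean square difference of centred log2(FPKM + 1), among 11335 genes. For Ccne1 they were Phf5a, at 0.06, and Glul, at 0.09, against a spread of 0.68 for Ccne1 about its own mean. For Ccnd2 they were Mirg, at 0.16, and Fetub, at 0.18, against a spread of 0.96. Mirg averaged 55.4 FPKM in siMbnl1/2, 50.4 in miR-294, 64.6 in Dgcr8 KO and 12.03 in WT. For Cdc25a they were Supt7l and Chd4, both at 0.04, against 0.21. For Ccne2 they were Ptpn4 and Suv39h2, for Cdk4 Afg3l1 and Cep85, for Cdk6 Nemp2 and Pign, and for Ccnd3 Atpaf2 and Zfp13.

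Markers of other cells differed between the groups, and their part in the results was not tested. The summed level of 10 primitive endoderm markers was 10.7 to 11.8 FPKM in siMbnl1/2, 15.7 to 16.3 in miR-294, 8.63 to 10.3 in Dgcr8 KO and 121 to 122 in WT, with none at 0. That of 10 embryonic stem cell markers was 7563 to 7571 FPKM in siMbnl1/2, 5978 to 6114 in miR-294, 6221 to 6754 in Dgcr8 KO and 5752 to 5807 in WT. For 8 trophoblast markers it was 32.8 to 50.4 FPKM in siMbnl1/2, 24.8 to 25.5 in miR-294, 35.5 to 38.3 in Dgcr8 KO and 17.6 to 18.8 in WT. Tfap2c made up most of that sum in Dgcr8 KO, and it averaged 28.1 FPKM there, 9.05 in miR-294 and 8.50 in WT. Other markers of the list did not follow it. Hand1 averaged 1.53 FPKM in Dgcr8 KO and 4.44 in miR-294, and the sums of miR-294 and WT differed at similar levels of Tfap2c. Of 6 trophoblast markers tested, 2 were higher and 2 lower in Dgcr8 KO than in WT, against 29.6% and 30.1% of all genes. After miR-294 relative to Dgcr8 KO, 3 were higher and 1 lower, against 22.9% and 29.2%. The 7 neuroectoderm markers summed to 55.3 to 57.0 FPKM in siMbnl1/2, 44.6 to 44.7 in miR-294, 59.8 to 65.1 in Dgcr8 KO and 58.3 to 58.8 in WT. Their similar sums in Dgcr8 KO and WT hold changes in both directions, with 3 higher and 1 lower of 6 tested. The 2 with the largest called differences were both higher in Dgcr8 KO and do not stand for the list, whose sum was similar. Pax6 averaged 9.71 FPKM in Dgcr8 KO and 1.57 in WT, and Ncam1 7.66 and 1.30. The 13 fibroblast markers, which feeder cells would carry, summed to 8.90 to 12.6 FPKM in the 8 libraries. Postn was at 0 in all 6 libraries of the knockout background, Lum in Dgcr8 KO and WT, and Dcn in WT. In each group 3 of the 13 averaged at least 1 FPKM. Twist1 averaged 4.56 FPKM in Dgcr8 KO and 2.52 in WT. After miR-294 Loxl1 averaged 1.01 FPKM, against 3.82 in Dgcr8 KO, and Thy1 3.70, against 1.59.

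In the deposited table, on mm10, genes lie at chr6:127125162-127152193 for Ccnd2, chr7:38097984-38107534 for Ccne1, chr4:11191351-11204779 for Ccne2, chr7:144929931-144939925 for Ccnd1 and chr9:109875579-109893895 for Cdc25a. Every member but Ccne1 overlaps another annotated gene. The libraries keep strand, but the strand setting of the counting is not given in the sources used here, so reads of such a pair may not have been told apart. The annotated pseudogene of Ccnd3 was at 0 to 0.290 FPKM, far below Ccnd3 itself.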

How the data were processed

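The deposited table gives FPKM per gene and library, made by the authors with STAR 2.5.0, Cufflinks 2.2.1 and the build mm10, per the submitters' processing notes. Per the labels' protocols, the libraries were made with a dUTP method that keeps strand. The sample labels name polyA RNA and the series design names total RNA. The annotation release is not given in the sources used here, and table starts, which count from 0, were raised by 1 for printing. Library totals differed by group. They were 510928 to 516086 FPKM in siMbnl1/2, 542209 to 549479 in miR-294, 473746 to 502310 in Dgcr8 KO and 564280 to 571508 in WT. The part of these totals in the differences was not tested. The depth is unknown, and reads were not reprocessed.

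Values were taken as log2(FPKM + 1), and 12786 genes with a mean of at least 1 FPKM entered 1 linear model of the 4 groups in limma 3.58.1 (with statmod 1.5.0 in R 4.3.3), with a variance trend and robust moderation over all 8 libraries. There were 6 comparisons, two-sided, adjusted by the Benjamini-Hochberg method over all genes tested. The 16 alternatives were a pseudocount of 0.1, no filter, a filter at a mean of 5 FPKM, median-of-ratios scaling, quantile normalization, the libraries of a comparison alone, no trend and no robust moderation, the replicate number as a block, and the omission of each library.

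Genes were matched to GENCODE M21 by identifier without its version, which matched all 10 members, and 9 have the same coordinates there (not Cdk2). The members and the lists of other genes were chosen with earlier results of these data known. Named genes are the members, the targeted genes, up to 2 called genes of each list with the largest difference in Dgcr8 KO minus WT and in miR-294 minus Dgcr8 KO, and the 2 genes most alike in pattern to each member called between Dgcr8 KO and WT. Marker genes are given as sums, with some of them named beside their sum.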

Additional observations from a re-analysis of the deposited data

How the results depend on the processing

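Of the 32 calls of members in the 6 comparisons, 15 held under all 16 alternative settings: Ccnd2, Ccne1 and Ccne2 in Dgcr8 KO minus WT, Ccnd1, Ccne1 and Cdc25a in miR-294 minus Dgcr8 KO and in siMbnl1/2 minus miR-294, Ccnd1 and Ccnd2 in miR-294 minus WT, and Ccnd2, Ccne1, Cdk4 and Cdc25a in siMbnl1/2 minus WT. Leaving out 1 library at a time gave 4 to 7 called members in Dgcr8 KO minus WT, 3 to 7 in miR-294 minus Dgcr8 KO, 0 to 2 in siMbnl1/2 minus Dgcr8 KO, 3 to 6 in siMbnl1/2 minus miR-294 and 2 to 5 in miR-294 minus WT. Of all genes, 45% to 65.6%, 35.8% to 59.2%, 0.117% to 5.14%, 37.5% to 54.8% and 9.41% to 35.9% were called in those 5 comparisons with 1 library left out. The lowest counts came without WT library 2, without miR-294 library 2, without any 1 of 6 libraries, without either miR-294 library, and without WT library 1 or either miR-294 library. An arm of 1 library was assumed to vary like the other groups. In siMbnl1/2 minus Dgcr8 KO no member was called (0 against 1) without a filter, with its libraries alone or with the replicate block. In miR-294 minus WT, 8 members were called with its libraries alone, against 5, and 49.7% of all genes, against 26.5%. The causes were not tested.

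No called member changed sign under any of the 16 settings. Among differences without a call, quantile normalization turned Ccna2 in Dgcr8 KO minus WT to 0.13 and, in miR-294 minus Dgcr8 KO, Ccnd3 to -0.0143, Ccna2 to -0.15 and Cdk4 to -0.15. In miR-294 minus WT, Ccne1 turned to 0.00607 with median-of-ratios scaling and 0.0558 with quantile normalization. In siMbnl1/2 minus WT, Cdk2 turned to -0.0727 with median-of-ratios scaling. With 1 library left out, the extremes were -0.0515 and 0.118 for Cdk2 in Dgcr8 KO minus WT, -0.435 and 0.0295 for Ccne2, -0.0176 and 0.113 for Ccna2 and -0.00667 and 0.157 for Cdk4 in miR-294 minus Dgcr8 KO, -0.411 and 0.0603 for Ccnd3 and -0.115 and 0.0546 for Cdk2 in siMbnl1/2 minus Dgcr8 KO, and -0.0282 and 0.0346 for Cdk2 in siMbnl1/2 minus WT.

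The replicate number is not stated to mark a shared day, and each group has 2. The difference between replicates 1 and 2 correlated across genes between groups at -0.05 to 0.19. With the replicate block, the calls of Ccnd3 and Cdk6 in Dgcr8 KO minus WT, Ccnd2 in siMbnl1/2 minus Dgcr8 KO, Ccnd3 in siMbnl1/2 minus miR-294 and Cdk2 in miR-294 minus WT were lost. Adding 1 to each FPKM moved 8 of the family shares by more than their SD, by under 1 percentage point each. With 2 libraries per group and unknown depth, the smaller differences were called or not depending on 1 library.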
